A study of Mus musculus with 8 samples.

Results

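The genes considered here encode enzymes and regulators of cholesterol and fatty acid synthesis. They are 29 named genes, and all 29 were found by symbol among the 52459 rows of the deposited table. All 29 also had a mean of at least 10 normalized counts and entered the test as part of 15419 genes. They comprise 7 enzymes of the mevalonate pathway, 11 enzymes of the sterol steps, 6 enzymes of fatty acid synthesis, and 5 regulators and carriers.

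Cells build cholesterol from acetyl-CoA by way of mevalonate, farnesyl diphosphate and squalene, and they build fatty acids from the same acetyl-CoA by way of malonyl-CoA. Most of these enzymes are known targets of the sterol regulatory element binding proteins (SREBPs), transcription factors held in the endoplasmic reticulum by Scap and Insig proteins while sterols are plentiful and released to the nucleus when sterols are scarce. Activated T cells are known to raise lipid synthesis for membranes, and the mevalonate pathway also provides isoprenoids for protein prenylation, dolichol and ubiquinone.

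RNA was sequenced from regulatory T (Treg) cells of spleen and lymph nodes of C57BL/6 mice in 8 libraries, 2 for each of 4 groups. Every group came from pooled female mice that were heterozygous for Foxp3-YFPcre, a Cre recombinase driven from the X-linked Foxp3 gene, and homozygous for floxed Stim1 and Stim2, the endoplasmic reticulum calcium sensors that open CRAC channels. WT cells were CD4+CD25hi cells without YFPcre, so they carried the floxed alleles undeleted. The cells labelled DKO were the YFPcre+ cells, in which Stim1 and Stim2 are meant to be deleted, and genotype is therefore bound to expression of the YFPcre allele. Cells were either unstimulated or stimulated for 16 h with 1 µg/ml of plate-bound antibodies to CD3 and CD28. Unstimulated libraries were run in lane 4 and stimulated libraries in lane 1, so that stimulation and lane cannot be told apart. A library is named by group and replicate, the unstimulated WT libraries being replicates 3 and 4 and all others replicates 1 and 2. In each list of paired values below, the lower replicate number comes first.

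The libraries held 11851853 to 16306540 reads on genes, and 1 read was worth 0.759 to 1.48 normalized counts, the unit being reads on a gene after the authors scaled each library by a size factor of its own. The defining Treg gene Foxp3 was present in all libraries, from 8159 to 11918 normalized counts in WT libraries and from 4258 to 7253 in those labelled DKO. Neither Stim1 (log2 fold change 0.44 unstimulated and -0.15 stimulated) nor Stim2 (-0.15 and -0.13) was called lower in the libraries labelled DKO (limma adjusted p from 0.236 to 0.827), so the groups are named by their labels, and counts over a whole gene do not show a deleted exon. The unstimulated library DKO replicate 1 stood apart from the other unstimulated ones. Its 9 macrophage markers summed to 9397 normalized counts, against 1283 in DKO replicate 2 and 35.5 to 146 in the other 6 libraries, and the complement genes C1qa and C1qc, which define tissue macrophages, were at 0 in both unstimulated WT libraries. Its 6 B cell markers summed to 2435 normalized counts, against 529 in DKO replicate 2 and 253 to 261 in the unstimulated WT libraries. The CD8 T and NK cell, neutrophil and erythroid lists were also highest in this library among the unstimulated ones, with sums of 759, 629 and 169. Stimulated libraries held such markers too. Stimulated DKO replicate 1 had sums of 1170.5 for the B cell, 802 for the CD8 T and NK cell and 619 for the neutrophil list. The B cell sum of stimulated WT replicate 1 was 811. The part of these other cells in the results was not tested. In such bulk RNA, fewer cells of a type and less RNA per cell cannot be told apart.

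The sequences upstream of these genes are shown first because SREBPs act through short elements close to the start of transcription. RefSeq sequence of the GRCm38.p6 assembly was at hand for 23 of the 29 members, in 250 bases before each annotated start, and was not used here for Stard4, Sqle, Fdft1, Fdps, Scd1 and Scd2. The 6 sequences below belong to 5 of the members that rose after stimulation in 1 or both genotypes and to Insig1, the member that retains SREBPs and is itself a known SREBP target. Of these 5, Hmgcs1, Cyp51 and Hsd17b7 passed the threshold given below in the cells labelled DKO only. Capitals mark the sterol element core TCACNCCAC, the E-box CACGTG and the CCAAT box, each on either strand, and each sequence reads 5′ to 3′ along the strand of its gene and ends at the base before the start.
Hmgcs1 (chr13:119690101-119690350, plus strand): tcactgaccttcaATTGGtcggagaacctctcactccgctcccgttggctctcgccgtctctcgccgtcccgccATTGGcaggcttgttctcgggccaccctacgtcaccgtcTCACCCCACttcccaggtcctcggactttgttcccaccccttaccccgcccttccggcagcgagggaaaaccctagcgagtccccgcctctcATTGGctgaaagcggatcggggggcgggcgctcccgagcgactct
Cyp51 (chr5:4104698-4104947, minus strand): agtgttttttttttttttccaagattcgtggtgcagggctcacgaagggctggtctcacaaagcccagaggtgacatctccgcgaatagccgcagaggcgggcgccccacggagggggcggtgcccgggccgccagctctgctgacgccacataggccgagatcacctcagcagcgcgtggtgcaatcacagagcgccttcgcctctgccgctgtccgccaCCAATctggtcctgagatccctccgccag
Hsd17b7 (chr1:169969206-169969455, minus strand): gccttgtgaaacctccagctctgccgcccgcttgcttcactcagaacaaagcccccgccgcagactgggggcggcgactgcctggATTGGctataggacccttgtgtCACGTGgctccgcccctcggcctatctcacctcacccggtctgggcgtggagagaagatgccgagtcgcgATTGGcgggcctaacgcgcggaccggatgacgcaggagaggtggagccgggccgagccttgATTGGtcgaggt
Msmo1 (chr8:64733579-64733828, minus strand): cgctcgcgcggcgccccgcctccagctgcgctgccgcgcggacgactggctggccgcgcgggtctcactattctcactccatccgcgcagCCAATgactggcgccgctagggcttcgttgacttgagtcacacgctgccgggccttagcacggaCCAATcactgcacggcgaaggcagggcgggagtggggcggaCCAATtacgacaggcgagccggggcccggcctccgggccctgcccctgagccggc
Fasn (chr11:120824548-120824797, minus strand): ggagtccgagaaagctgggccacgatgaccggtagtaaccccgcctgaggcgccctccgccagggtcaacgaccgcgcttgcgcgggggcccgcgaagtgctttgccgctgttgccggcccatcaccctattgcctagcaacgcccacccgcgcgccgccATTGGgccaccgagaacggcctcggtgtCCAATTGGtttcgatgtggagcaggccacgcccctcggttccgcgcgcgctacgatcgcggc
Insig1 (chr5:28071162-28071411, plus strand): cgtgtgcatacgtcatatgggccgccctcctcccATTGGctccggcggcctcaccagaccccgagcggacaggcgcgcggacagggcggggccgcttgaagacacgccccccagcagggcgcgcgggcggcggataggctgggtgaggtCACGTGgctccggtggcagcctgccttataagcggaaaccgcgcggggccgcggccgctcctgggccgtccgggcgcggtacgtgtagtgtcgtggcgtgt

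The sterol element core was present in 1 of the 23 members, Hmgcs1, 137 bases before its start (4.35%, against 1.22% of 27025 genes with upstream sequence and 1.22% of the 9882 tested ones among them). An E-box lay upstream of 5 members, Hsd17b7, Sc5d, Dhcr7, Scap and Insig1 (21.7%, against 6.86% of all and 9.65% of tested genes). A CCAAT box, the element bound by NF-Y, lay upstream of 18 members (78.3%, against 37.5% and 40.2%), and a GC box (GGGCGG on either strand, the element bound by Sp1) upstream of 19 (82.6%, against 35.4% and 61.4%). Acaca and Elovl6, which rose after stimulation in both genotypes and are not printed, had none of these elements. In Fasn, CCAAT boxes on opposite strands overlap in the letters CCAATTGG. The GC box is not capitalized in the printed sequences. A gene with several annotated starts was counted if any of its windows held the letters. These matches describe the letters in a window of 250 bases and say nothing of binding.

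Stimulation was the condition with which the members varied most. After stimulation, 8 of the 29 members were called higher in WT cells and 14 in the cells labelled DKO, the rule for a call being an adjusted p (Benjamini-Hochberg, limma) under 0.05 together with a difference above 1.5-fold. The background was 10.2% of the 15419 tested genes called higher in WT cells and 13.0% in labelled cells. With all 8 libraries in the fit, no member was called lower by limma or edgeR in either genotype, where 13.1% of tested genes in WT cells and 12.0% in labelled cells were, while DESeq2 on recovered reads called 1 member lower in each, Insig1 in WT and Scd1 in labelled cells, the same members that had an unadjusted limma p under 0.05 in that direction. The median log2 fold change of the members was 0.47 in WT and 0.70 in labelled cells, beside 0.01 and -0.03 for all tested genes. Both stimulated libraries lay above both unstimulated libraries for 17 members in WT cells and 22 in labelled cells, against 35.0% and 30.8% of tested genes.

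The 8 members called in WT cells were all among the 14 called in labelled cells, that is 100% of the former and 57.1% of the latter, where over all tested genes 1051 genes called higher in both (6.82% of those tested) made up 66.5% and 52.6%. The counts fell without any 1 of the WT libraries and without either stimulated labelled library, and so did the calls over all tested genes. Such fits leave 1 library in a group. The members' median log2 fold change was then 0.44 to 0.62 in WT cells. In labelled cells it was 0.81 without DKO stimulated replicate 1 and 0.73 without DKO stimulated replicate 2. With only the 4 labelled libraries in the fit the count in labelled cells was 7, the calls of Fdft1, Lss, Cyp51, Ebp, Sc5d, Dhcr7 and Acaca being lost. Over all tested genes, 880 were called higher in that fit, in place of 1997. Rescaling the libraries to equal totals moved the median of all tested genes to 0.52 in WT and 0.35 in labelled cells, and the share of called genes that were higher from 44.0% to 81.4% and from 51.8% to 77.9%. On that scale 18 and 20 members were called higher, where 4258 and 3791 of the 15419 tested genes were. The members' medians were 0.99 and 1.09. The grid of values by library shows the members that moved together.

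**Figure D1:**
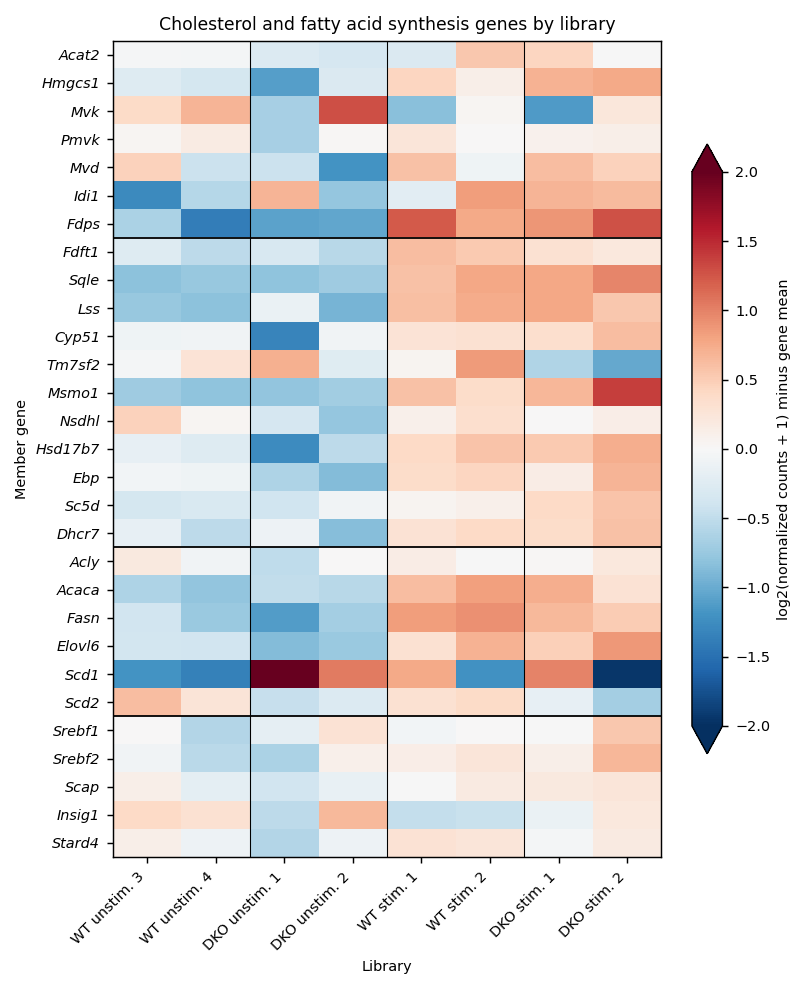
Level of each of the 29 members (rows, grouped by role) in each of the 8 libraries (columns), as log2(normalized counts + 1) minus the gene's mean over libraries, with colour from low to high. The sterol enzymes and Acaca, Fasn and Elovl6 are mostly above their means in the 4 stimulated libraries, and Scd1 stands highest in unstimulated DKO replicate 1, at 435 normalized counts.

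Of the 7 mevalonate enzymes, Fdps was called higher in WT cells, and Fdps and Hmgcs1 were in labelled cells. Fdps makes farnesyl diphosphate, the branch point towards sterols and isoprenoids, and was at 30.2 and 17.7 normalized counts in the unstimulated WT pair and 22 and 22.7 in the labelled pair. After stimulation it had 112 and 81.2 in WT and 88.1 and 117 in labelled libraries. All 4 stimulated libraries lay above all unstimulated ones, an order seen for 35.0% (WT) and 30.8% (labelled) of tested genes within a genotype. The log2 fold change was 2.00 ± 0.44 (SE, limma adjusted p = 0.0106) in WT cells and 2.13 ± 0.44 (SE, limma adjusted p = 0.00707) in labelled cells, the largest among the 29 members in each genotype, or 3.99-fold (95% interval 2.03 to 7.83) and 4.38-fold (2.23 to 8.6). It rested on as few as 12 reads in a library, its call in WT cells was lost without WT unstimulated replicate 4 or WT stimulated replicate 1 (adjusted p up to 0.0925), and pseudogenes near-identical to it may share its reads. Hmgcs1, the synthase that makes hydroxymethylglutaryl-CoA, had 797 and 753 normalized counts in unstimulated WT, 448 and 781 in unstimulated labelled, 1293 and 1040.2 in stimulated WT and 1552 and 1619 in stimulated labelled libraries. Its lowest value was in unstimulated DKO replicate 1. Hmgcs1 rose in labelled cells, by a log2 fold change of 1.42 ± 0.26 (SE, limma adjusted p = 0.00431), and its value in WT cells, 0.58 ± 0.26 (SE, limma adjusted p = 0.131), did not pass.

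Mvd, the decarboxylase that yields isopentenyl diphosphate, just missed the threshold in labelled cells, with 50.3 and 29.4 normalized counts before and 106 and 94.6 after stimulation and a log2 fold change of 1.35 ± 0.45 (SE, limma adjusted p = 0.0513). It passed there without DKO unstimulated replicate 1 and in 2 other alternatives, and the gene model of Gm20388 covers it on the other strand. Idi1, the isopentenyl diphosphate isomerase, had 20.5 and 34 in unstimulated and 43.6 and 91.1 in stimulated WT libraries, with a log2 fold change of 1.23 ± 0.57 (SE, limma adjusted p = 0.143). The thiolase Acat2, whose reads may be shared with the similar Acat3, and the phosphomevalonate kinase Pmvk had log2 fold changes from 0.03 to 0.51 in the 2 genotypes and were not called. Mevalonate kinase, Mvk, was the mevalonate enzyme with values below 0 in both genotypes, -0.93 in WT and -0.76 in labelled cells (limma adjusted p = 0.324 and 0.409), and its libraries of a group differed widely, with 54.5 and 212 normalized counts in the unstimulated labelled pair.

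Of the 11 sterol enzymes, 4 were called in WT cells and 9 in labelled cells, with median log2 fold changes of 0.68 and 1.15. Over all tested genes, 10.2% and 13.0% were called higher, with medians of 0.01 and -0.03. The interaction of genotype and stimulation was called by limma for 0 of these enzymes. Squalene synthase, Fdft1, commits farnesyl diphosphate to sterols and had 311 and 257 normalized counts in unstimulated WT, 296 and 251 in unstimulated labelled, 567 and 535 in stimulated WT and 458 and 428 in stimulated labelled libraries. Squalene epoxidase, Sqle, a rate-limiting step of the sterol branch, had 318 and 332, 319.8 and 342, 843 and 956, and 958 and 1100.1 in the same order of groups. Lanosterol synthase, Lss, closes the ring and had 229 and 220.1, 353 and 203, 588 and 646, and 661 and 564. For these 3 enzymes, every stimulated library lay above every unstimulated library. Within a genotype, that order held for 35.0% of tested genes in WT and 30.8% in labelled cells. Sqle rose 2.75-fold in WT cells (95% interval 2.02 to 3.75, limma adjusted p = 0.00166) and 3.1-fold in labelled cells (2.27 to 4.22, adjusted p = 0.000767), and its calls were kept in every alternative of both contrasts. Fdft1 rose by a log2 fold change of 0.96 ± 0.22 (SE, limma adjusted p = 0.0136) in WT and 0.70 ± 0.22 (SE, limma adjusted p = 0.0442) in labelled cells, and Lss by 1.45 ± 0.28 (SE, limma adjusted p = 0.00596) and 1.19 ± 0.28 (SE, limma adjusted p = 0.0124). The call of Fdft1 in WT cells was lost whichever of the 4 libraries was left out (adjusted p up to 0.117), and in labelled cells it was lost in 7 of 14 alternatives, namely without DKO unstimulated replicate 2 or either stimulated library, with no filter on low values, at equal upper quartiles, with the labelled libraries alone and with a replicate block (up to 0.143). Lss was not called without WT unstimulated replicate 4 or WT stimulated replicate 2 (adjusted p up to 0.0586), nor in labelled cells without DKO stimulated replicate 1 or with the labelled libraries alone (up to 0.0638). Gene models on the other strand overlap Fdft1 (Ctsb, by 769 bases) and Lss (4930483K19Rik, by 11268 bases), and whether the counting used strand is not stated.

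Msmo1, the methyl sterol oxidase, had 243 and 226 normalized counts in unstimulated WT, 229.6 and 246 in unstimulated labelled, 595 and 509 in stimulated WT and 627 and 1038 in stimulated labelled libraries. It rose 2.35-fold in WT (95% interval 1.56 to 3.54, limma adjusted p = 0.0101) and 3.39-fold in labelled cells (2.24 to 5.11, adjusted p = 0.00187). The stimulated labelled pair differed most from each other, and the WT call was lost whichever of the 4 WT libraries was left out (adjusted p up to 0.0816). The other 5 sterol enzymes called in labelled cells did not pass in WT cells, where their log2 fold changes were also above 0.

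Cyp51, the lanosterol demethylase, had 749 and 1788 normalized counts in unstimulated and 2384 and 2899 in stimulated labelled libraries, against 1773 and 1792 and 2284 and 2330.3 in WT libraries. The first of these values, in DKO unstimulated replicate 1, was less than any other, and without that library Cyp51 was no longer called in labelled cells, nor was it without either stimulated labelled library, with no filter on low values or with the labelled libraries alone (adjusted p up to 0.114). Its log2 fold change was 1.18 ± 0.33 (SE, limma adjusted p = 0.0253) in labelled and 0.37 ± 0.33 (SE, limma adjusted p = 0.44) in WT cells. Hsd17b7, the ketosteroid reductase of the pathway, went from 110.1 and 184 to 380.4 and 439 in labelled cells, a log2 fold change of 1.51 ± 0.28 (SE, limma adjusted p = 0.00489), and from 236 and 223 to 352 and 393 in WT cells, 0.69 ± 0.28 (SE, limma adjusted p = 0.104). The sterol isomerase Ebp went from 113 and 94.8 to 192 and 279 in labelled cells, 1.15 ± 0.28 (SE, limma adjusted p = 0.0156), and from 167 and 164 to 224 and 235 in WT cells, 0.47 ± 0.28 (SE, limma adjusted p = 0.258). The last enzymes of the route were the desaturase Sc5d and the reductase Dhcr7. Sc5d had 594 and 745 in unstimulated and 1029.9 and 1164 in stimulated labelled libraries, with a log2 fold change of 0.72 ± 0.20 (SE, limma adjusted p = 0.0247), and 616 and 632 against 811 and 839.8 in WT libraries, 0.40 ± 0.20 (SE, limma adjusted p = 0.167). Dhcr7 had 237 and 140.2 against 328 and 379.9 in labelled libraries, 0.95 ± 0.30 (SE, limma adjusted p = 0.0407), and 227 and 177 against 311 and 335 in WT libraries, 0.68 ± 0.30 (SE, limma adjusted p = 0.121). In each of these 5 enzymes, both stimulated libraries of a genotype lay above its unstimulated ones, as for 35.0% of tested genes in WT and 30.8% in labelled cells. Hsd17b7 stayed called in labelled cells in every alternative, whereas the calls of Ebp, Sc5d and Dhcr7 were each lost with the labelled libraries alone. Ebp was also lost without DKO unstimulated replicate 2 or DKO stimulated replicate 2 (adjusted p up to 0.0945), and Sc5d without DKO unstimulated replicate 1 or either stimulated library and with a replicate block (up to 0.112). Dhcr7 was called in 7 of 14 alternatives, and was also lost without DKO unstimulated replicate 2 or either stimulated library, with edgeR, with no filter on low values and at equal upper quartiles (up to 0.186).

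Nsdhl and Tm7sf2 were the sterol enzymes not called in either genotype. Nsdhl, a sterol dehydrogenase, had a log2 fold change of 0.62 ± 0.28 (SE, limma adjusted p = 0.126) in labelled and -0.03 ± 0.28 (SE, limma adjusted p = 0.953) in WT cells. Tm7sf2, a sterol reductase that shares its step with another enzyme, went from 86 and 44.1 to 34.1 and 25.3 in labelled cells, -1.04 ± 0.48 (SE, limma adjusted p = 0.134), and from 50.7 and 63.5 to 54.6 and 95.7 in WT cells, 0.34 ± 0.48 (SE, limma adjusted p = 0.637). It was thus the sterol enzyme whose 2 stimulated labelled libraries lay below the unstimulated ones, as for 4716 of the 15419 tested genes. The model of Tm7sf2 overlaps 1110014N23Rik on the same strand by 532 bases.

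**Figure D2:**
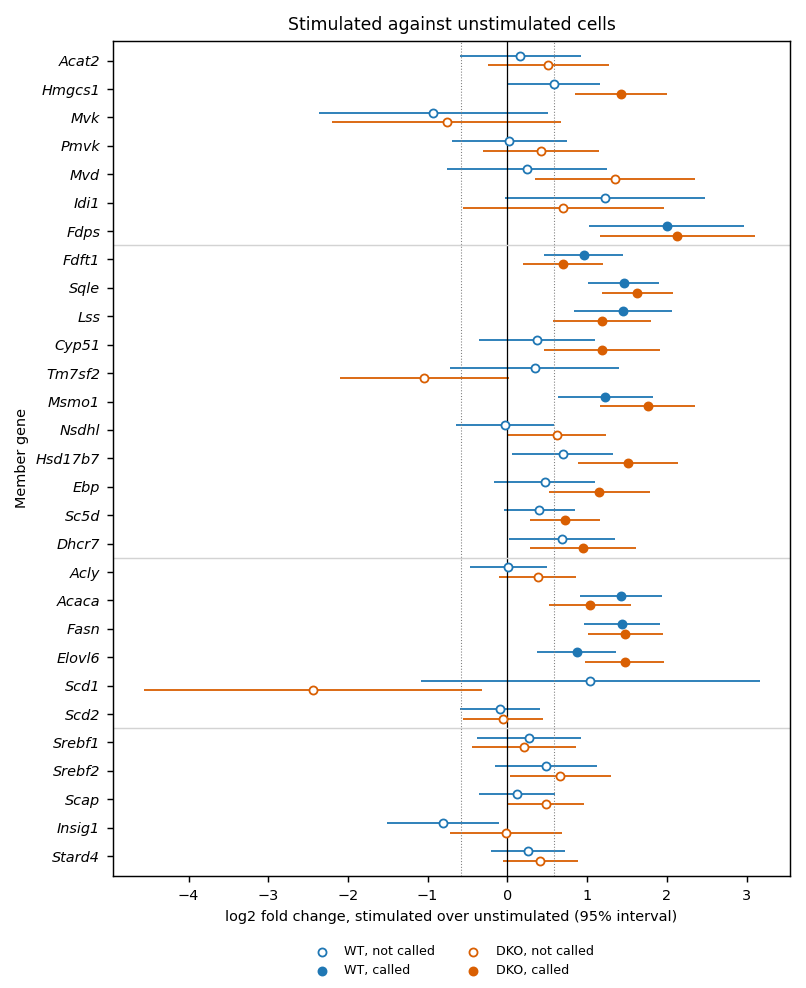
Log2 fold change of stimulated over unstimulated cells for each member (rows, grouped by role), in WT (blue) and labelled DKO cells (orange), with 95% intervals from limma over 2 libraries against 2. Filled points are called members, 8 in WT and 14 in DKO cells, all to the right of 0, and dotted lines mark 1.5-fold.

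Of the 6 fatty acid synthesis enzymes, Acaca, Fasn and Elovl6 rose in both genotypes. Acetyl-CoA carboxylase, Acaca, makes malonyl-CoA and is the committed step. Its values were 284 and 254 normalized counts in unstimulated WT, 311 and 296 in unstimulated labelled, 671 and 773 in stimulated WT and 728 and 533 in stimulated labelled libraries. Fatty acid synthase, Fasn, had 816 and 639.6, 493 and 661, 1908 and 2007, and 1678 and 1515 in the same order. The elongase Elovl6, which extends palmitate, had 494 and 492, 351 and 383, 789 and 1031, and 894 and 1165. No stimulated library reached down to an unstimulated one for these 3 genes. Within a genotype, the same was true of 35.0% of tested genes in WT and 30.8% in labelled cells. Fasn rose 2.71-fold in WT (95% interval 1.95 to 3.76, limma adjusted p = 0.00224) and 2.79-fold in labelled cells (2.01 to 3.88, adjusted p = 0.0015), and was called in every alternative of both contrasts. Acaca rose 2.68-fold (interval 1.87 to 3.82, adjusted p = 0.00307) and 2.05-fold (1.43 to 2.92, adjusted p = 0.0104), and lost its call in labelled cells without DKO stimulated replicate 1 and with the labelled libraries alone (adjusted p up to 0.0668). Elovl6 rose 1.83-fold (1.3 to 2.58, adjusted p = 0.0195) and 2.78-fold (1.97 to 3.91, adjusted p = 0.00185), with its WT call lost whichever of the 4 WT libraries was left out (up to 0.167). ATP citrate lyase, Acly, which supplies acetyl-CoA to both routes, had log2 fold changes of 0.01 ± 0.22 (SE, limma adjusted p = 0.975) in WT and 0.38 ± 0.22 (SE, limma adjusted p = 0.225) in labelled cells. Its interval in WT cells, 0.721 to 1.41 on the fold scale, lay within 1.5-fold either way.

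With all 8 libraries in the fit, none of the 5 regulators and carriers was called after stimulation in either genotype by limma on the deposited scale or by edgeR, while DESeq2 called Insig1 lower in WT cells. On the scale of equal totals, limma called Srebf2, Scap and Stard4 higher in both genotypes. On that scale 4258 of the 15419 tested genes in WT and 3791 in labelled cells were called higher. Without DKO unstimulated replicate 2, limma called Srebf2 and Stard4 higher in labelled cells. Srebf2, the SREBP that mainly drives sterol genes, had 968 and 702 normalized counts in unstimulated WT, 652 and 1086 in unstimulated labelled, 1108 and 1196 in stimulated WT and 1105 and 1612 in stimulated labelled libraries. Its log2 fold change was 0.48 ± 0.29 (SE, limma adjusted p = 0.248) in WT and 0.66 ± 0.29 (SE, limma adjusted p = 0.114) in labelled cells. Srebf1, the SREBP that mainly drives fatty acid genes, had 371 and 245, 326 and 453, 355 and 372, and 367 and 539 in the same order, with log2 fold changes of 0.27 ± 0.29 (SE, limma adjusted p = 0.544) and 0.21 ± 0.29 (SE, limma adjusted p = 0.632). Its stimulated and unstimulated libraries overlapped in both genotypes. The SREBP escort Scap had 592 and 476, 416 and 491, 542 and 617, and 625 and 641, with log2 fold changes of 0.12 ± 0.21 (SE, limma adjusted p = 0.708) and 0.48 ± 0.21 (SE, limma adjusted p = 0.124). The sterol carrier Stard4 had 1306 and 1119.7, 804 and 1118, 1475 and 1423, and 1175 and 1357, with 0.26 ± 0.21 (SE, limma adjusted p = 0.396) and 0.41 ± 0.21 (SE, limma adjusted p = 0.174).

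Insig1, which retains the Scap and SREBP complex, had values opposite to most members in WT cells. It held 1621 and 1522 normalized counts in unstimulated and 888 and 904 in stimulated WT libraries. These did not overlap, and 5551 of the 15419 tested genes likewise lay lower in both stimulated WT libraries. Insig1 had 859 and 1922 in unstimulated and 1123 and 1431 in stimulated labelled libraries, where the groups overlapped. The log2 fold change in WT cells was -0.81 ± 0.32 (SE, limma adjusted p = 0.091), or 0.571-fold (95% interval 0.35 to 0.932), and it passed with DESeq2 and with only the 4 WT libraries in the fit (adjusted p from 0.00149 over the alternatives). Between its unstimulated labelled libraries the values differed widely. In labelled cells the log2 fold change was -0.02 ± 0.32 (SE, limma adjusted p = 0.969), and it was called lower there without DKO unstimulated replicate 1 (adjusted p = 0.0463).

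Between genotypes in unstimulated cells, no member was called by limma or edgeR with all 8 libraries in the fit, where 1.38% of tested genes were called higher and 3.35% lower in labelled libraries. At an unadjusted limma p under 0.05, 1 member was higher (Scd1) and 4 were lower (Nsdhl, Hsd17b7, Ebp and Scd2). Of the 15419 tested genes, 1485 were higher and 1910 lower at that p. DESeq2 on recovered reads called Scd1 higher and Scd2 lower. The members' median log2 fold change was -0.23 (all tested genes -0.01), with 19 of 29 values below 0, and it was -0.065 without DKO unstimulated replicate 1 and -0.068 on the scale of equal upper quartiles, on which the median of all genes was 0.15. On that scale the share of called genes that were higher was 46.3%, and on that of equal totals 40.6%, in place of 29.2%. Genotypes did not overlap for 10 of 29 members, 8 lower and 2 higher, against 53.6% of tested genes.

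Nsdhl, Hsd17b7 and Ebp, the sterol enzymes with an unadjusted limma p under 0.05, had lower values in labelled libraries. None of them was called with all 8 libraries in the fit. Nsdhl had 300.0 and 225 normalized counts in WT and 173 and 127 in labelled unstimulated libraries, with a log2 fold change of -0.80 ± 0.28 (SE, limma adjusted p = 0.127). For Hsd17b7 the log2 fold change was -0.68 ± 0.28 (SE, limma adjusted p = 0.192), and for Ebp -0.67 ± 0.28 (SE, limma adjusted p = 0.201). Hmgcs1, Cyp51, Hsd17b7 and Insig1 were lowest in DKO unstimulated replicate 1, the library with the high macrophage and B cell sums, at 448, 749, 110.1 and 859 normalized counts against 781, 1788, 184 and 1922 in replicate 2. With replicate 1 as the lone labelled library, the log2 fold changes of these 4 genes were -0.79, -1.25, -1.05 and -0.87. Without replicate 1 they were 0.01, 0.005, -0.32 and 0.29. The median of all tested genes was -0.02 and 0.03 in these fits. The 95% interval of the fold change lay between 2-fold lower and 2-fold higher for 15 members, among them Sqle (0.746 to 1.39), Fdft1 (0.683 to 1.36), Msmo1 (0.672 to 1.53), Fasn (0.569 to 1.1), Acaca (0.792 to 1.61) and Srebf2 (0.657 to 1.59). For the others the interval reached past 2-fold, in the widest cases of Scd1, Mvk and Idi1 on a log2 scale from 1.11 to 5.36, -1.66 to 1.21 and -0.39 to 2.13.

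**Figure D3:**
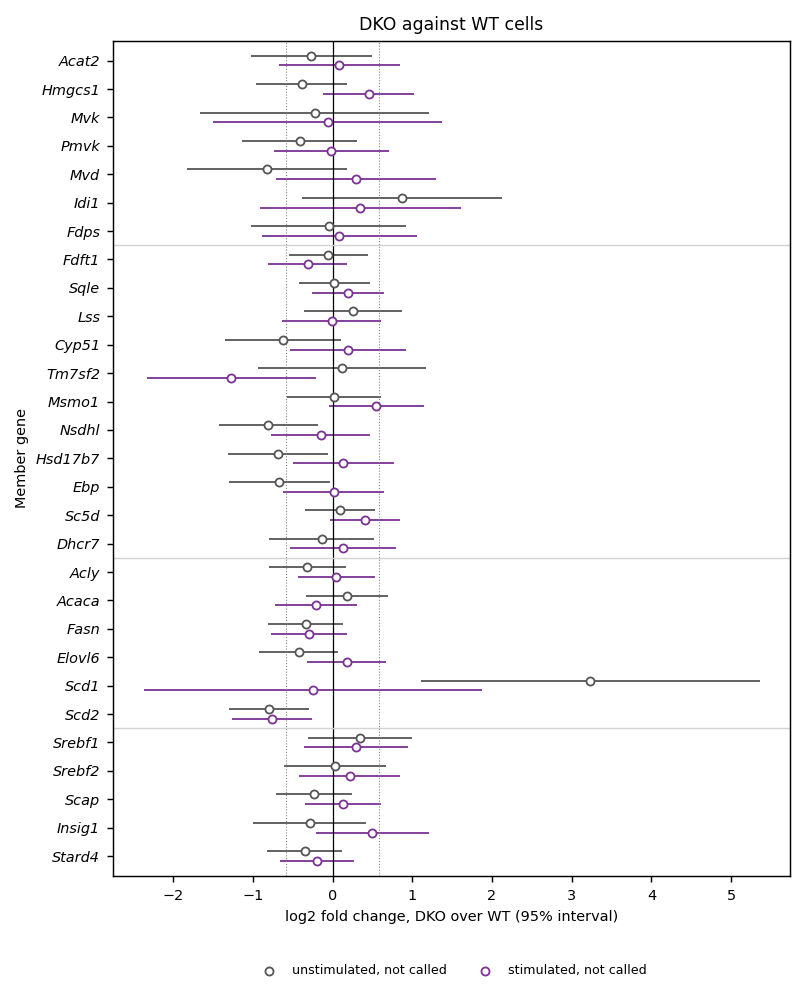
Log2 fold change of labelled DKO over WT cells for each member (rows, grouped by role), in unstimulated (grey) and stimulated cells (purple), with 95% intervals from limma over 2 libraries against 2. All points are open, as no member was called in either state, and the Scd2 values lie at -0.80 and -0.76 while Scd1 in unstimulated cells lies at 3.23.

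In stimulated cells, again no member was called between genotypes by limma, edgeR or DESeq2, beside 0.162% of tested genes called higher and 0.11% lower by limma. Unadjusted limma p was under 0.05 for Tm7sf2 and Scd2, both lower in labelled libraries. Of the 15419 tested genes, 980 were higher and 1138 lower at that p. Tm7sf2 had 54.6 and 95.7 normalized counts in WT and 34.1 and 25.3 in labelled libraries and a log2 fold change of -1.27 ± 0.48 (SE, limma adjusted p = 0.263), with as few as 30 reads in a library. The median of the members was 0.08 (all tested genes 0.02) and 0.23 without DKO stimulated replicate 1. Genotypes did not overlap for 12 members, 7 higher and 5 lower, against 47.4% of tested genes. For the members that rose with stimulation, the fold change of labelled over WT cells was 1.14 for Sqle (95% interval 0.839 to 1.56), 0.815 for Fasn (0.586 to 1.13), 1.06 for Fdps (0.541 to 2.08), 1.46 for Msmo1 (0.971 to 2.21) and 1.37 for Hmgcs1 (0.916 to 2.04). The intervals were within 2-fold either way for 19 of 29 members. Values that miss the threshold are not shown to be equal.

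The difference between genotypes in the response to stimulation, tested as an interaction, was not called for any member by limma, edgeR or DESeq2, nor for any tested gene by limma (0.0%) or edgeR, with 1257 genes at an unadjusted limma p under 0.05, while DESeq2 called 37 higher and 13 lower over all genes. The median interaction of the members was 0.26 on the log2 scale (all tested genes 0.05), with 22 values above 0 and 7 below. Unadjusted limma p was under 0.05 for Hmgcs1, at 0.84 ± 0.37 (SE, limma adjusted p = 0.6), and for Scd1, at -3.48 ± 1.35 (SE, limma adjusted p = 0.569). The 6 members called in labelled but not in WT cells had interactions of 0.84 for Hmgcs1, 0.81 for Cyp51, 0.82 for Hsd17b7, 0.69 for Ebp, 0.32 for Sc5d and 0.26 for Dhcr7, with limma adjusted p from 0.600 to 0.886. A larger rise in labelled cells was therefore not shown for them. The median was 0.13 without DKO unstimulated replicate 1 and 0.43 without DKO unstimulated replicate 2. The median interaction of all tested genes was 0.02 and 0.03 in these fits. On the scales of equal totals and upper quartiles the median was 0.14 and 0.11.

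The stearoyl-CoA desaturases, which place the first double bond in saturated fatty acids, had the smallest limma adjusted p between genotypes among the members in unstimulated cells. Scd2 had 1519 and 1188 normalized counts in unstimulated WT and 725 and 825 in unstimulated labelled libraries, and 1233 and 1293 in stimulated WT and 891 and 621 in stimulated labelled libraries. All 4 labelled libraries lay below all 4 WT libraries. Within a state, genotypes did not overlap for 53.6% of tested genes in unstimulated and 47.4% in stimulated cells. The share over both states together was not counted. The log2 fold change was -0.80 ± 0.23 (SE, limma adjusted p = 0.0763) in unstimulated and -0.76 ± 0.23 (SE, limma adjusted p = 0.161) in stimulated cells, or 0.576-fold (95% interval 0.406 to 0.817) and 0.59-fold (0.416 to 0.836). DESeq2 called it lower in unstimulated cells (adjusted p = 0.0339), and over the alternatives the adjusted p there reached 0.528. With stimulation its values were -0.09 ± 0.23 (SE, limma adjusted p = 0.805) in WT and -0.06 ± 0.23 (SE, limma adjusted p = 0.878) in labelled cells. In unstimulated cells the labelled libraries had 40109 and 47805 normalized counts over 6 Treg and T cell markers, against 91902 and 85605 in WT libraries, and after stimulation 67927 and 85817 against 94707 and 112665. Ctla4 held the largest part of the unstimulated difference, with 37404 and 35119 in WT and 6338 and 17333 in labelled libraries. Foxp3 had 10000.5 and 8159 in WT against 4947 and 4258 in labelled libraries. Ikzf2 had 18953 and 19707 against 8398 and 9233, and Il2ra 11360 and 10408 against 7021 and 6821. Of the general T cell markers, Cd3e lay between 3042 and 3424 in the 4 unstimulated libraries. Cd4 had 10760.2 and 8918 in WT against 10363 and 7005 in labelled libraries. All 6 markers had log2 fold changes below 0 in unstimulated cells, and limma called 2 of them lower, where 3.35% of tested genes were. The part of these marker values in those of Scd2 was not tested.

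Scd1 varied with single libraries. It had 24.8 and 22.2 normalized counts in unstimulated WT, 435 and 120.2 in unstimulated labelled, 99 and 24.3 in stimulated WT and 116 and 14.3 in stimulated labelled libraries. The log2 fold change between genotypes was 3.23 ± 0.95 (SE, limma adjusted p = 0.085) in unstimulated cells and -0.25 ± 0.95 (SE, limma adjusted p = 0.947) in stimulated cells, and with stimulation it was 1.04 ± 0.95 (SE, limma adjusted p = 0.459) in WT and -2.44 ± 0.95 (SE, limma adjusted p = 0.0865) in labelled cells. Scd1 was higher in the library of each pair with the higher sum of the 6 B cell markers. The same held for the CD8 T and NK cell list and for the neutrophil list, but not for the macrophage and erythroid lists. The macrophage sums departed from this order in the unstimulated WT pair only, where Scd1 had close values, 24.8 and 22.2. The B cell sums were 261 and 253 in unstimulated WT, 2435 and 529 in unstimulated labelled, 811 and 153 in stimulated WT and 1170.5 and 238 in stimulated labelled libraries. The CD8 T and NK cell sums were 299 and 248, 759 and 266, 370 and 202, and 802 and 245 in the same order. The sums of the 9 macrophage markers were 124 and 146, 9397 and 1283, 85.0 and 79.7, and 78.6 and 35.5 in the same order. The part of any of these other cells in the values of Scd1 was not tested. Scd1 and Scd2 are similar genes, so reads that match either were lost if only unique alignments were kept.

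**Figure D4:**
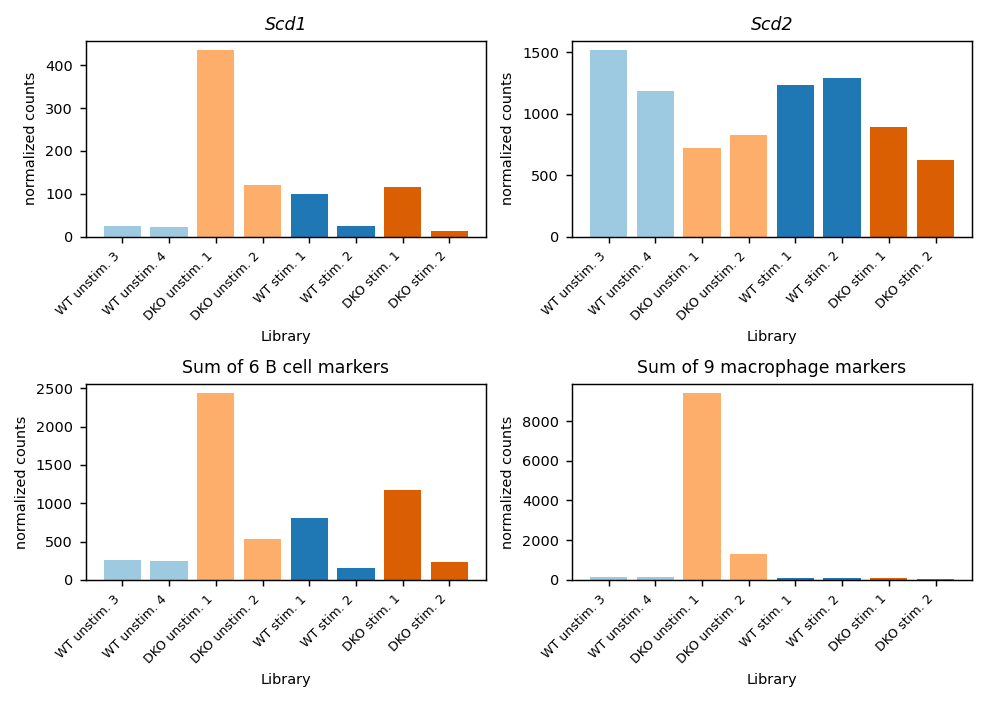
Normalized counts of Scd1 and Scd2 and the summed normalized counts of 6 B cell and 9 macrophage markers in each of the 8 libraries (bars, linear axes from 0, coloured by group). Scd2 is lower in all 4 DKO libraries than in the 4 WT libraries, and Scd1 and the macrophage sum are highest in unstimulated DKO replicate 1, at 435 and 9397.

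Other genes of these pathways moved in both directions with stimulation. Among 13 tested genes of 15 on a list of further SREBP pathway genes, 3 were called higher and 3 lower in WT cells, where 10.2% and 13.1% of all tested genes were, and 5 higher and 4 lower in labelled cells, where 13.0% and 12.0% were. Tmem97, a sterol-regulated membrane protein, rose in WT cells from 28.1 and 26.6 to 153 and 153 normalized counts, a log2 fold change of 2.44 ± 0.38 (SE, limma adjusted p = 0.00273), and its value in labelled cells was 1.03 ± 0.38 (SE, limma adjusted p = 0.0745). The mitochondrial citrate carrier Slc25a1 rose in both genotypes, by a log2 fold change of 1.48 ± 0.36 (SE, limma adjusted p = 0.0156) in WT and 1.63 ± 0.36 (SE, limma adjusted p = 0.00962) in labelled cells. Insig2, the paralogue of Insig1, rose in labelled cells by 1.37 ± 0.27 (SE, limma adjusted p = 0.00556), and its value in WT cells was 0.49 ± 0.27 (SE, limma adjusted p = 0.207). Elovl5, which elongates polyunsaturated fatty acids, and the phosphatidate phosphatase Lpin1 fell in both genotypes. The log2 fold changes of Elovl5 were -1.87 ± 0.29 (SE, limma adjusted p = 0.00262) in WT and -0.94 ± 0.29 (SE, limma adjusted p = 0.038) in labelled cells, and those of Lpin1 -1.92 ± 0.33 (SE, limma adjusted p = 0.00354) and -1.09 ± 0.33 (SE, limma adjusted p = 0.0342). Acss2, which makes acetyl-CoA from acetate, fell in labelled cells, with a log2 fold change of -1.47 ± 0.35 (SE, limma adjusted p = 0.0127), and had -0.70 ± 0.35 (SE, limma adjusted p = 0.167) in WT cells. The list's medians were 0.08 in WT and 0.83 in labelled cells.

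In the isoprenoid branch, which leaves the route after farnesyl diphosphate, 4 of 14 genes were called higher and 0 lower in each genotype, beside the same background shares, with medians of 0.55 in WT and 0.49 in labelled cells and 0 lower at an unadjusted p under 0.05. Coq2, of ubiquinone synthesis, rose by a log2 fold change of 1.40 ± 0.30 (SE, limma adjusted p = 0.01) in WT and 1.47 ± 0.30 (SE, limma adjusted p = 0.00705) in labelled cells. Dhdds, of dolichol synthesis, rose by 0.96 ± 0.30 (SE, limma adjusted p = 0.041) and 0.93 ± 0.30 (SE, limma adjusted p = 0.044). Dolk was called in WT cells, at 1.73, with 0.91 in labelled cells, and Icmt in labelled cells, at 0.93, with 0.54 in WT cells.

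Genes of sterol storage, transport and efflux contained the largest falls. Of 10 tested genes of 12, 2 were called higher and 4 lower in WT cells, and 1 higher and 3 lower in labelled cells, against 10.2% and 13.1%, and 13.0% and 12.0%, of all tested genes. The cholesterol exporters Abca1 and Abcg1 and the ubiquitin ligase Mylip, which degrades lipoprotein receptors, are known targets of liver X receptors, the sensors of oxysterols. Abca1 had 623 and 610.1 normalized counts in unstimulated WT, 1094 and 1129 in unstimulated labelled, 139 and 105 in stimulated WT and 114 and 51.5 in stimulated labelled libraries. Abcg1 had 2645 and 2473, 1794 and 2986, 274 and 219, and 268 and 509.9 in the same order, and Mylip 339 and 275, 499 and 602, 101 and 40.2, and 141 and 237. All 4 stimulated libraries lay below all unstimulated libraries for each of these 3 genes. Within a genotype, both stimulated libraries lay below both unstimulated ones for 5551 of the 15419 tested genes in WT and 4716 in labelled cells. Abca1 had log2 fold changes of -2.34 ± 0.35 (SE, limma adjusted p = 0.00219) in WT and -3.84 ± 0.35 (SE, limma adjusted p = 0.000239) in labelled cells, Abcg1 of -3.38 ± 0.33 (SE, limma adjusted p = 0.000364) and -2.64 ± 0.33 (SE, limma adjusted p = 0.000767), and Mylip of -2.24 ± 0.42 (SE, limma adjusted p = 0.00538) and -1.58 ± 0.42 (SE, limma adjusted p = 0.0213). The lysosomal acid lipase Lipa fell in WT cells, with a log2 fold change of -1.25 ± 0.24 (SE, limma adjusted p = 0.00658), and had -0.72 ± 0.24 (SE, limma adjusted p = 0.0544) in labelled cells. The acyltransferase Lpcat3 rose in both genotypes, by 1.01 ± 0.26 (SE, limma adjusted p = 0.0194) in WT and 1.16 ± 0.26 (SE, limma adjusted p = 0.0103) in labelled cells. Macrophages also express Abca1 and Lipa, and the part of the macrophages of the unstimulated labelled libraries was not tested. Between genotypes limma called 0 genes of these 3 lists in either state, with unadjusted p under 0.05 for 1 higher and 2 lower in the SREBP list, 1 higher in the isoprenoid list and 1 higher in the efflux list in unstimulated cells, and for 1 higher and 1 lower, 0, and 3 higher in stimulated cells.

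**Figure D5:**
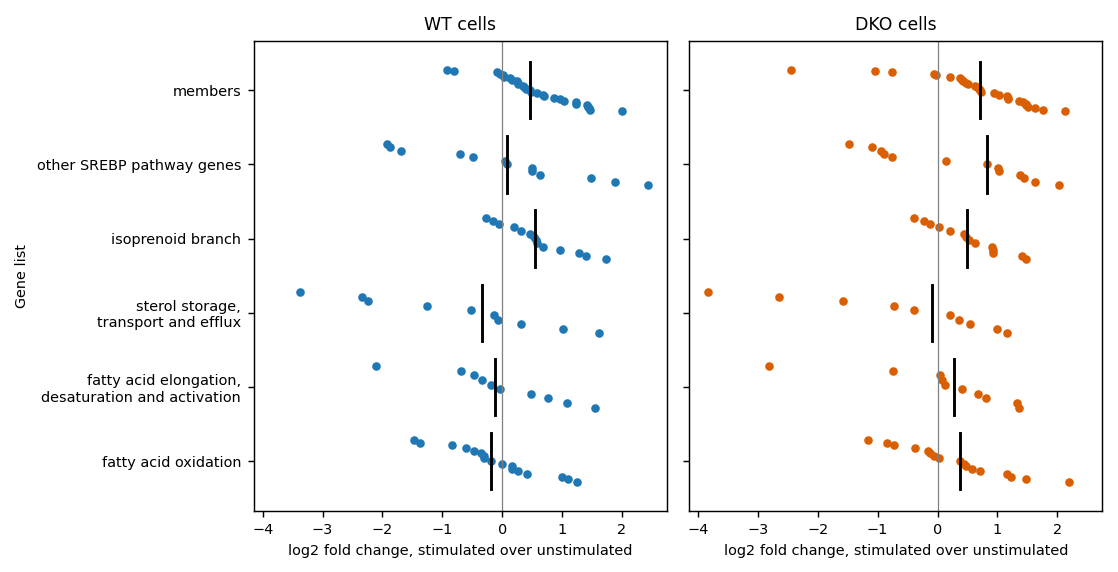
Log2 fold change of stimulated over unstimulated cells for the 29 members and for the tested genes of 5 further lists (rows), in WT (left) and labelled DKO cells (right). Each point is a gene and each black bar the median of its list, which for the members is 0.47 and 0.70, and the points farthest to the left in the row of storage, transport and efflux are Abcg1 at -3.38 in WT and Abca1 at -3.84 in DKO cells.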

How the data were processed

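Gene expression of Treg cells was measured by RNA sequencing in 8 libraries of 4 groups. The study's methods describe Bowtie alignment of single reads (NCBIM37), duplicate removal by Picard, counting by HTSeq and the use of DESeq2. The submitters' processing notes name bcl2fastq 1.8.4, STAR 2.7, DESeq2 and the mm10 build instead, and which route made the table could not be settled. The deposited values are a signal, namely reads counted on each gene and then scaled by the authors with 1 size factor a library. Totals per library were left unequal and were lower in stimulated libraries. Whole reads were recovered for at least 99.998% of the values of each library within a tolerance of 0.0051. Per the study's methods the cells of each sample were pooled from several mice, and which libraries of different genotype or state shared a pool is not given in the sources used here, so p-values measure the spread between pooled libraries, not between mice.

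After adding a pseudocount of 1 and taking log2, 1 limma model (version 3.58.1, R 4.3.3, eBayes with its trend option) was fitted to all 4 groups for the 15419 genes with a mean of at least 10. Tests were 2-sided, with Benjamini-Hochberg adjustment over all tested genes, and a call needed both adjusted p under 0.05 and a fold above 1.5. The script was tested on simulated data. Alternatives were pseudocounts of 0.1 and 5, no filter or a mean of at least 100, no fold threshold, 2 other scalings, edgeR 4.0.16 and DESeq2 1.42.0 on recovered reads, the libraries of a contrast alone, a replicate block and each library left out in turn. All 29 members are named, and of each other list at most 4 genes with the smallest p in the contrast described; some of these are counted in their list but not reported here. The members and lists were chosen with earlier results of these data known. Upstream sequences and motif letters came from RefSeq, GRCm38.p6, and gene overlaps from another annotation (GENCODE) than the one counted.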

Additional observations from a re-analysis of the deposited data

How the results depend on the processing

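With 2 libraries a group, few reads for Fdps, Idi1 and Scd1, and stimulation bound to lane, small differences were not detectable. No called value changed sign. Pseudocounts, edgeR, no filter on low values, no fold threshold and a mean of at least 100 (24 members tested) kept every count within 1.5 times and every median within the spread of libraries. The cause was not tested for the changes that follow. Over all tested genes, fewer were called higher after stimulation in WT cells without any 1 of the WT libraries. In labelled cells fewer were called higher without DKO unstimulated replicate 2 or either stimulated library, and with the labelled libraries alone. More were called higher there without DKO unstimulated replicate 1, and in both genotypes with equal totals. Members called higher after stimulation in WT cells (8) became 18 with equal totals and 3 to 5 with each library left out, fewest without WT unstimulated replicate 4, a fit in which the lone library is assumed to vary like the other groups. Their median (0.47) became 0.99 with equal totals and 0.44 to 0.62 with libraries left out, most without WT unstimulated replicate 3. In labelled cells the count (14) became 7 with only the libraries of the contrast and 8 to 14 with libraries left out, fewest without DKO stimulated replicate 1, and the median (0.70) became 1.09 with equal totals. Members called lower after stimulation (0) became 1 in each genotype with DESeq2, 1 in WT cells with only the libraries of the contrast, and 0 to 1 in labelled cells with libraries left out (Insig1 without DKO unstimulated replicate 1, Scd1 without DKO stimulated replicate 1).

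Between genotypes in unstimulated cells, members called lower (0) became 1 with DESeq2. Members called higher (0) became 1 with DESeq2 and 1 with only the libraries of the contrast, Scd1 each time. Over all tested genes, DESeq2 called 521 higher and 817 lower, and the libraries of the contrast alone gave 83 higher. Some members were called lower without DKO unstimulated replicate 2, where calls over all tested genes also rose. The median (-0.23) became -0.068 with equal upper quartiles and -0.35 to -0.065 with libraries left out. In stimulated cells the median (0.08) ranged from 0.016 to 0.23, highest without DKO stimulated replicate 1. For the interaction, some members were called higher without DKO unstimulated replicate 2, where calls over all tested genes also rose. The median (0.26) became 0.14 with equal totals, 0.11 with equal upper quartiles and 0.13 to 0.43 with libraries left out.

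Counting each member under each alternative, calls were lost 16 times after stimulation in WT cells and 31 times in labelled cells, and gained 14 and 15 times, 7 times between genotypes in unstimulated cells and 2 times for the interaction. The replicate numbers gave 2 pairs at most, with correlations of 0.17 between stimulated WT and labelled libraries and 0.26 between unstimulated and stimulated labelled libraries, and nothing in the labels makes them pairs. A replicate block gave 13 members called higher and 1 called lower (Scd1) after stimulation in labelled cells, and 0 in either direction between genotypes in stimulated cells. No paired analysis was possible for the other comparisons because the unstimulated WT libraries share no number with another group.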

Other observations

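Genes that extend, desaturate or activate fatty acids after synthesis, and genes that oxidize them, stand outside the comparisons above. Of 10 tested genes of the first list, 2 were called higher and 0 lower after stimulation in WT cells by limma (3 and 2 at an unadjusted p under 0.05) and 3 higher and 1 lower in labelled cells, beside 10.2% and 13.1% of all tested genes in WT and 13.0% and 12.0% in labelled cells. Elovl1, which elongates long saturated chains, rose by a log2 fold change of 1.55 ± 0.23 (SE, limma adjusted p = 0.00237) in WT and 1.35 ± 0.23 (SE, limma adjusted p = 0.00337) in labelled cells. Hsd17b12, the ketoacyl reductase of the elongation cycle, rose by 1.09 ± 0.20 (SE, limma adjusted p = 0.0054) and 1.33 ± 0.20 (SE, limma adjusted p = 0.00193). In unstimulated cells Hacd3, a dehydratase of the same cycle, had 3081 and 3179 normalized counts in WT and 635 and 1163 in labelled libraries and a log2 fold change of -1.86 ± 0.25 (SE, limma adjusted p = 0.0077), and it was the gene of this list called between genotypes.

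Of 17 tested genes of fatty acid oxidation, 0 were called higher and 3 lower after stimulation in WT cells by limma (3 and 4 at an unadjusted p under 0.05), and 4 higher and 3 lower in labelled cells, beside the same shares of all tested genes, such as 13.1% called lower in WT cells. Cpt1a, which admits long-chain fatty acids to mitochondria, fell from 853 and 851 to 298 and 317 normalized counts in WT and from 596 and 637 to 228 and 335 in labelled cells, with log2 fold changes of -1.47 ± 0.23 (SE, limma adjusted p = 0.00288) and -1.15 ± 0.23 (SE, limma adjusted p = 0.00687). Hadh, a hydroxyacyl-CoA dehydrogenase, had log2 fold changes of -1.37 ± 0.22 (SE, limma adjusted p = 0.00291) and -0.85 ± 0.22 (SE, limma adjusted p = 0.0193). Etfa and Etfb, the electron transfer flavoprotein, rose in labelled cells by 1.23 ± 0.22 (SE, limma adjusted p = 0.00378) and 2.19 ± 0.39 (SE, limma adjusted p = 0.00394), and had 0.26 ± 0.22 (SE, limma adjusted p = 0.409) and 1.10 ± 0.39 (SE, limma adjusted p = 0.0662) in WT cells. In unstimulated cells, Hadh and Etfa were called lower in labelled than in WT libraries, with log2 fold changes of -0.98 ± 0.22 (SE, limma adjusted p = 0.0362) and -0.90 ± 0.22 (SE, limma adjusted p = 0.0465).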
